A study of Mus musculus with 6 samples.

Results

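The genes described here are the cyclins and the cyclin-dependent kinases (CDKs) of the mouse, 42 of the 18193 genes measured. The rule for membership uses gene names: every gene whose platform symbol is Ccn with 1 letter and an optional number, or Cdk with a number and nothing after it, which gave 24 cyclins and 18 CDKs. Each gene is represented by the probe set with the highest mean over the 6 arrays among those assigned to that gene only. The arrays came from 3 populations of hair follicle cells taken from back skin of female CD-1 mice by cell sorting, with 2 arrays each and 2 µg of total RNA per array. HF-TAC are transit-amplifying matrix cells, sorted with GFP, integrin α6 and ephrinB1 from mice aged P28 to P30. aHF-SC are activated stem cells, sorted with GFP, integrin α6 and CD34 at the same age. qHF-SC are quiescent stem cells of mice aged P52 to P60, for which the sort used integrin α6 and CD34. No genotype other than the strain and no treatment is given. The labels state neither what drives GFP nor on which side of each gate the cells lay, and age and the sorting markers differ between the groups together with the cell state. CD-1 is an outbred stock. Whether the 2 arrays of a group come from separate mice is not stated, so the p-values measure only how far these arrays spread, and that spread may be technical.

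CDKs are protein kinases, most of which are active only when a cyclin is bound. D cyclins with Cdk4 and Cdk6 act in G1, E cyclins with Cdk2 at the entry into S phase, A cyclins with Cdk2 and Cdk1 through S and G2 phase, and B cyclins with Cdk1 at mitosis. Many other members of both families have no such place in the cycle: several phosphorylate RNA polymerase II or work in the Mediator complex, and some have neuronal or ciliary roles. Cdk7 is also the catalytic subunit of the CDK-activating kinase. In the hair follicle the bulge stem cells rest for most of the hair cycle, whereas the matrix at the base of a growing follicle divides rapidly.

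Cell cycle genes often carry short promoter motifs: the CCAAT box bound by NF-Y, the cell cycle genes homology region bound by the MuvB core, and E2F sites. The RefSeq promoter table (GRCm38.p6) held 32 of the 42 members, and the 250 bases before the start it gives were searched on both strands. Ccnd3 and Cdk16 each had a second start there. For these genes the window at the lower coordinate was counted, so a CCAAT in the other window of Ccnd3 was not. The shares over all promoters counted every listed start. The letters searched were CCAAT, the cores TTTGAA and also TTTAAA of the homology region, and the E2F core TTCCCGC with its variants TTGGCGC and further TTCGCGC and finally TTGCCGC. Of these, CCAAT stood in 15 of the 32 windows (46.9%), against 33.8% of all 32851 promoters in the table. A homology region core stood in 8 members (25%), against 25.2% of all promoters, and an E2F core in 4 (12.5%), against 7.89%. In 18 of the 32 members the window adjoins the outermost annotated start of the gene; in the others the table uses a start inside the gene. Printed here, 5′ to 3′ in the gene's own direction with the matches in capitals, are the windows of the 3 genes in the table with the largest differences between HF-TAC and qHF-SC, and of Ccne1 as a G1 cyclin with a single match. All 4 windows end at the outermost start. Ccnb2 lies at chr9:70421555-70421804 on the minus strand, Cdk1 at chr10:69352913-69353162 on the minus strand, Ccnf at chr17:24251410-24251659 on the minus strand and Ccne1 at chr7:38107491-38107740 on the minus strand.
Ccnb2: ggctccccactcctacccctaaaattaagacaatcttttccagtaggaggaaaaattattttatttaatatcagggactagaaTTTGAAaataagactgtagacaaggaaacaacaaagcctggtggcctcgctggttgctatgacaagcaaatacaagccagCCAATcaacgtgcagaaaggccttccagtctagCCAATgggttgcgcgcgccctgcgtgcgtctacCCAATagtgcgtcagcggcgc
Cdk1: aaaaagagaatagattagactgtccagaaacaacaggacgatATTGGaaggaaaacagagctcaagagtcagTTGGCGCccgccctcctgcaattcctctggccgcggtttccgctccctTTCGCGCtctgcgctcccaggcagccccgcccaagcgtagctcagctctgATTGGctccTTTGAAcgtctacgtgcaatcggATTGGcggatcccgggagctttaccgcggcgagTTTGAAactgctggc
Ccnf: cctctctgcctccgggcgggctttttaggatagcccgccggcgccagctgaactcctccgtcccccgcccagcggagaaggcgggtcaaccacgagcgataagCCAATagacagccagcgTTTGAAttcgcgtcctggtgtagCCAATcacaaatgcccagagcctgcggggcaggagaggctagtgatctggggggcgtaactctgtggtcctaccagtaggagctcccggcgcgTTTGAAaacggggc
Ccne1: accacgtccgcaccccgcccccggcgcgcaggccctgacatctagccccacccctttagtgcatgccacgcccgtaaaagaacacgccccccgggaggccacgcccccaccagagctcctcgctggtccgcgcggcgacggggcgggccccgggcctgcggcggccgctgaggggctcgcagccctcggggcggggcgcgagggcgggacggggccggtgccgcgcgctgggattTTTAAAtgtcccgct
Counting back from the start, with -1 the base just before it, Ccnb2 had CCAAT at -87, -54 and -21, a regular spacing of 33 bases, and TTTGAA at -167. Cdk1 had CCAAT on the opposite strand, read as ATTGG above, at -208, -80 and -48. It also had TTTGAA at -71 and -15 and the E2F cores TTGGCGC at -178 and TTCGCGC at -130. Ccnf had CCAAT at -147 and -107 and TTTGAA at -130 and -14. Ccne1 had TTTAAA, which reads the same on both strands, at -15. CCAAT occurred at least 2 times in 10.1% of all promoters. Among the members not printed here, Ccnc, Ccng1, Ccnj, Ccnt2, Cdk10 and Cdk16 also had it more than once. Of these, Ccnc was higher and Ccng1 lower in HF-TAC against qHF-SC, and the others did not pass as fitted. No match overlapped another in these windows. A match describes the letters in the window, and no binding was measured.

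The values are intensities on a linear scale. The arrays had medians of 22.8 to 23.9 over their probe sets, and replicates correlated across genes at r = 0.989 in HF-TAC, 0.991 in aHF-SC and 0.992 in qHF-SC. The labels were set against marker lists. Matrix markers summed to 10450 and 21839 in HF-TAC, 1142 and 1772 in aHF-SC and 896 and 696 in qHF-SC. Bulge stem cell markers summed to 10368 and 7704 in HF-TAC, 44734 and 50131 in aHF-SC and 59930 and 60466 in qHF-SC. Proliferation markers, which include Mki67, Top2a, Plk1 and Pcna, summed to 17137 and 22804 in HF-TAC, 7818 and 5320 in aHF-SC and 3856 and 3566 in qHF-SC. Pcna alone made up 7396 and 10101 of the HF-TAC sums, 4066 and 2939 of the aHF-SC sums and 2751 and 2604 of the qHF-SC sums. The median over this list was 1299 and 1477 in HF-TAC, 408 and 187 in aHF-SC and 49.9 and 35.8 in qHF-SC. The matrix and proliferation sums ordered the groups as the labels do. The bulge sums were lowest in HF-TAC. For aHF-SC against qHF-SC, 2 of the 10 bulge markers, Cd34 and Postn, were lower at an adjusted p under 0.05, and the median log2 difference of the list was 0.03. Genes known to respond to tissue dissociation, such as Fos and Jun, summed to 42965 and 38269 in HF-TAC, 51825 and 73809 in aHF-SC and 20616 and 14520 in qHF-SC. Markers of differentiated keratinocytes summed to 32934 and 21319 in HF-TAC, 12580 and 14968 in aHF-SC and 26622 and 26405 in qHF-SC, and 3 of 6 passed downward for aHF-SC against qHF-SC. Melanocyte markers summed to 524 and 882 in HF-TAC, 276 and 357 in aHF-SC and 221 and 167 in qHF-SC. Fibroblast and papilla markers summed to 3810 and 6333 in HF-TAC, 378 and 656 in aHF-SC and 428 and 536 in qHF-SC, and Dcn alone made up 3646 and 5927 of the HF-TAC sums. The part of these other genes and cells in the results on cyclins and CDKs was not tested. In such bulk samples, fewer cells that express a gene and less RNA per cell cannot be told apart.

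Against qHF-SC, 11 of the 42 members were higher and 4 lower in HF-TAC at an adjusted p under 0.05 (limma, Benjamini-Hochberg over all 18193 genes), whereas 13.4% of all genes were higher and 12.9% lower. These are 26.2% and 9.52% of the members. Against aHF-SC, 9 members were higher and 3 lower in HF-TAC (21.4% and 7.14%), with 8.97% of all genes higher and 8.57% lower. In aHF-SC against qHF-SC, 3 members were higher (7.14%) and 0 lower, with 3.07% of all genes higher and 3.21% lower. For the members lower in aHF-SC, limma gave 3 at an unadjusted p under 0.05, and 1 passed under each of 4 other settings given in the closing section. The median log2 difference of the members was 0.09, 0.19 and 0.10 in these comparisons, against -0.01, -0.01 and 0.00 over all genes. The count without a given array ranged from 9 to 14 members higher and 3 to 4 lower for HF-TAC against qHF-SC. For HF-TAC against aHF-SC it ranged from 4 higher, without aHF-SC replicate 2, to 10, and from 1 to 3 lower. For aHF-SC against qHF-SC it ranged from 1 higher, without qHF-SC replicate 2, to 4. The arrays of a member did not overlap between the groups for 29 of the 42 members in HF-TAC against qHF-SC, 27 in HF-TAC against aHF-SC and 30 in aHF-SC against qHF-SC. The same held for 61.2%, 54.3% and 50.8% of all genes, so with 2 arrays a group a lack of overlap is common. Every group enters 2 of the comparisons, which therefore share arrays.

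**Figure D1:**
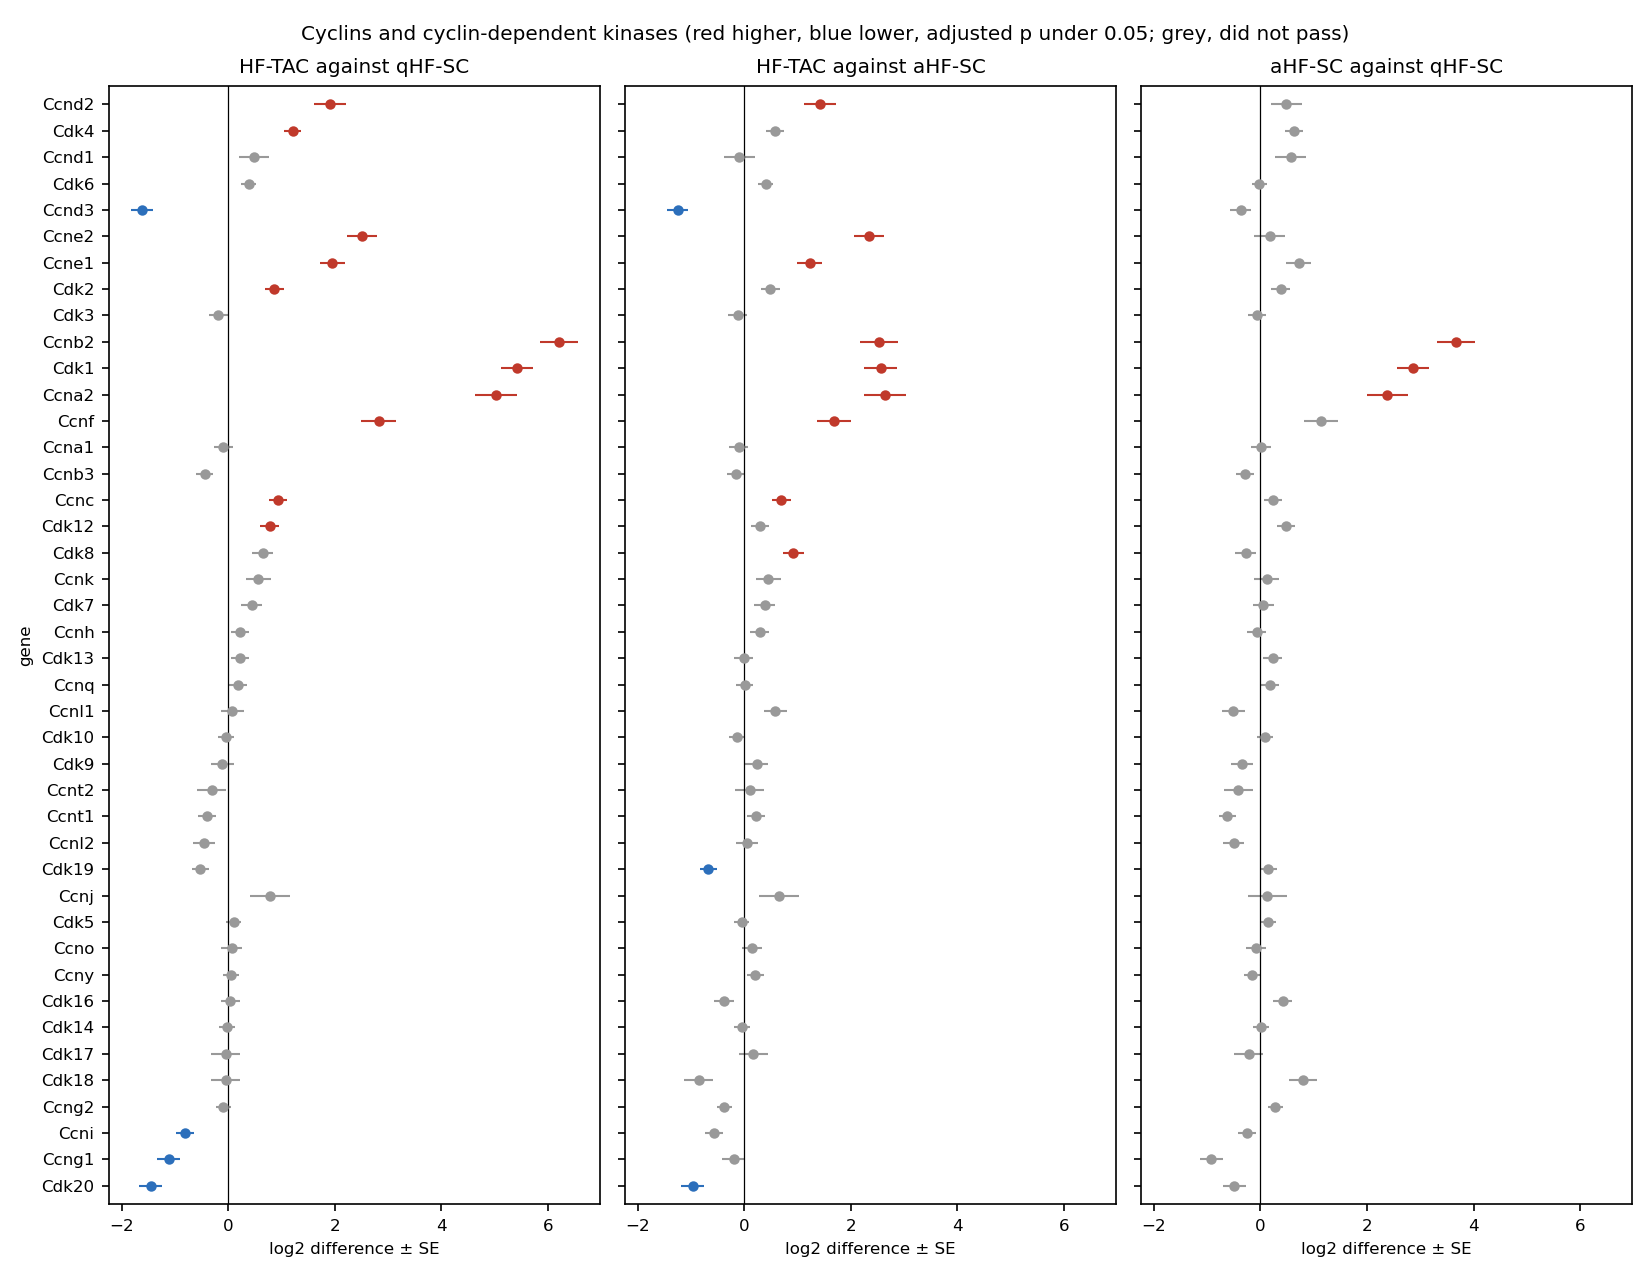
Log2 difference with its standard error (horizontal axis) of every cyclin and CDK in HF-TAC against qHF-SC, HF-TAC against aHF-SC and aHF-SC against qHF-SC, with members ordered by role down the page. Coloured points passed an adjusted p of 0.05 in limma. Ccna2, Cdk1 and Ccnb2 stand farthest to the right, at log2 differences of 5.03 to 6.20 in HF-TAC against qHF-SC, while Ccna1 and Ccnb3 lie at -0.09 and -0.44.

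The mitotic group held the largest differences. Ccna2, Ccnb2, Ccnf and Cdk1, 4 of the 6 members of the group of A, B and F cyclins and Cdk1, rose in HF-TAC against both stem cell groups, and 3 of the 6 rose in aHF-SC against qHF-SC. Over all genes, 13.4% rose in HF-TAC against qHF-SC, 8.97% in HF-TAC against aHF-SC and 3.07% in aHF-SC against qHF-SC. The group's median log2 difference was 3.92 for HF-TAC against qHF-SC, 2.10 for HF-TAC against aHF-SC and 1.76 for aHF-SC against qHF-SC. Ccnb2, the B-type cyclin that drives Cdk1 at mitosis alongside cyclin B1, had intensities of 919.6 and 1272 in HF-TAC, 262.2 and 133.9 in aHF-SC and 18.03 and 11.95 in qHF-SC. The 3 groups did not overlap, and both qHF-SC arrays lay below the array median. The fitted differences were 73.7-fold for HF-TAC against qHF-SC (log2 6.20 ± 0.35 SE, limma adjusted p = 7.27e-05), 5.77-fold for HF-TAC against aHF-SC (2.53 ± 0.35, adjusted p = 0.00336) and 12.8-fold for aHF-SC against qHF-SC (3.67 ± 0.35, adjusted p = 0.00348). With 16 added to every intensity, which weighs down dim signals, the log2 differences of Ccnb2 against qHF-SC were 5.15 in HF-TAC and 2.73 in aHF-SC. Cdk1, the kinase of mitosis, had 1663 and 2056 in HF-TAC, 439.1 and 225.0 in aHF-SC and 45.7 and 40.6 in qHF-SC. Its groups did not overlap either. Cdk1 was 42.9-fold higher in HF-TAC than in qHF-SC (log2 5.42 ± 0.30, adjusted p = 6.91e-05), 5.88-fold higher in HF-TAC than in aHF-SC (2.56 ± 0.30, adjusted p = 0.00194) and 7.29-fold higher in aHF-SC than in qHF-SC (2.87 ± 0.30, adjusted p = 0.00508). Without qHF-SC replicate 2 the last difference of Cdk1 had an adjusted p of 0.054.

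Ccna2, the A cyclin of dividing somatic cells, had 1002 and 1334 in HF-TAC, 277.5 and 123.7 in aHF-SC and 43.8 and 28.7 in qHF-SC. The order of the groups was the same as for Cdk1, with no overlap. Ccna2 was 32.6-fold higher in HF-TAC than in qHF-SC (log2 5.03 ± 0.39, limma adjusted p = 0.000178), 6.24-fold higher in HF-TAC than in aHF-SC (2.64 ± 0.39, adjusted p = 0.00408) and 5.22-fold higher in aHF-SC than in qHF-SC (2.38 ± 0.39, adjusted p = 0.0175). The call on aHF-SC was lost for Ccna2 when qHF-SC replicate 2 (adjusted p = 0.127) or aHF-SC replicate 1 (0.057) was left out, and with 16 added to the intensities (0.0714). Ccnf encodes cyclin F, which binds no CDK and serves as the substrate receptor of an SCF ubiquitin ligase. It had 93.3 and 188.1 in HF-TAC, 41.1 and 41.6 in aHF-SC and 16.01 and 21.94 in qHF-SC, again without overlap. Ccnf was 7.07-fold higher in HF-TAC than in qHF-SC (log2 2.82 ± 0.32, adjusted p = 0.000849), or log2 2.10 with 16 added, and 3.20-fold higher in HF-TAC than in aHF-SC (1.68 ± 0.32, adjusted p = 0.0121). The second of these was lost for Ccnf without aHF-SC replicate 1 (adjusted p = 0.0557) or 2 (0.0651). Between aHF-SC and qHF-SC Ccnf differed 2.21-fold (1.14 ± 0.32, adjusted p = 0.0915), and the test was not passed. It was passed when either HF-TAC array was left out, which changes the estimated spread and not the difference of 1.14. The other probe set of Ccnf, at 6.10 to 8.48 in both stem cell groups, gave 0.28 in this comparison. The germline cyclin Ccna1 and the meiotic cyclin Ccnb3 stayed between 4.72 and 11.7 on all 6 arrays, below every array median, and passed in none of the comparisons. Ccnb1 had no probe set assigned to it alone and was not analysed here.

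The 2 aHF-SC arrays differed from each other in part of this group and in some other cyclins. Replicate 1 was above replicate 2 by 2.24 times for Ccna2, 1.96 for Ccnb2 and 1.95 for Cdk1. The ratio was 0.99 for Ccnf, 0.96 for Ccnb3 and 1.03 for Ccna1, and the median over the 6 members was 1.49. Outside the group it was 1.71 for Ccne2, 1.67 for Ccnd1 and 1.61 for Ccnd2, and down to 0.58 for Ccnj. Over all 42 members the median was 1.03, with 23 members higher in replicate 1. The proliferation marker sum was higher in aHF-SC replicate 1, 7818 against 5320. In HF-TAC replicate 1 over replicate 2 had a median ratio of 0.780 over the 6 members and 0.827 over all members. Ccna2 in aHF-SC and Ccnf in HF-TAC were the only members more than 2-fold apart between replicates.

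**Figure D2:**
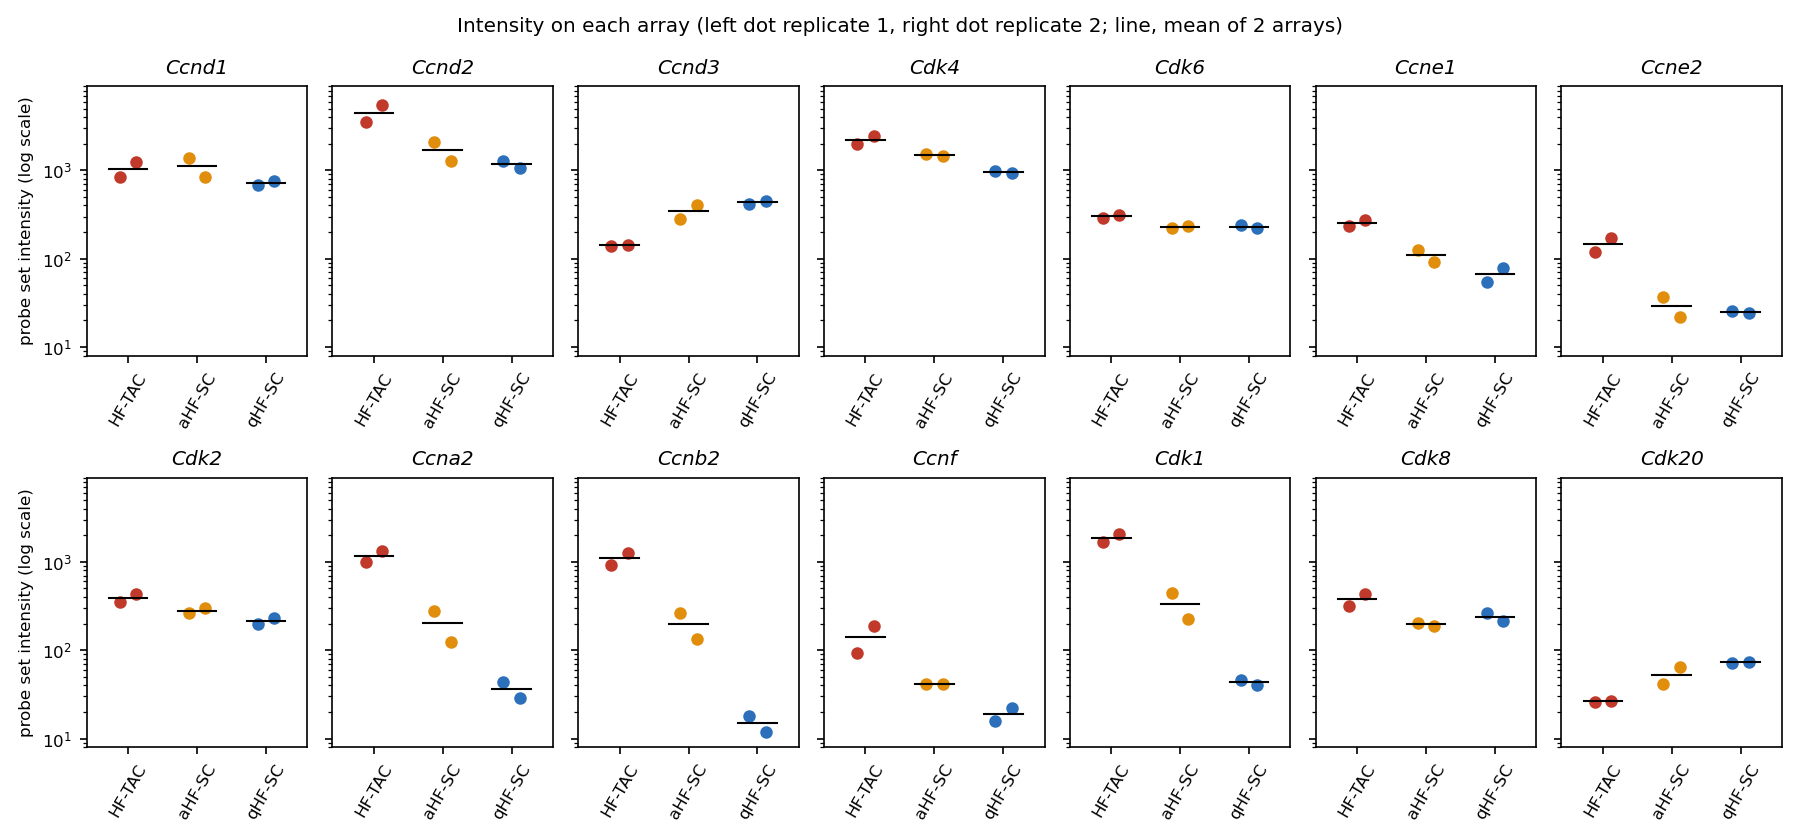
Intensity on each array (vertical axis, log scale, both replicates shown as points, with a line at their mean) of 14 cyclins and CDKs in HF-TAC, aHF-SC and qHF-SC, left to right. Each panel is a different probe set, so heights are comparable within a panel only. Cdk1 reaches 2056 in HF-TAC and at most 45.7 in qHF-SC, and Ccnd3 and Cdk20 are lowest in HF-TAC.

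In the group of E cyclins and partners, 3 of 4 members rose in HF-TAC against qHF-SC and 2 of 4 against aHF-SC, with 13.4% and 8.97% of all genes higher. In aHF-SC against qHF-SC 0 of 4 passed, with 3.07% of all genes higher and 3.21% lower. The smallest adjusted p there was 0.135, and 1 member had an unadjusted p under 0.05. Ccne2, which with Ccne1 activates Cdk2 at the start of S phase, had 118.3 and 172.4 in HF-TAC, 37.0 and 21.6 in aHF-SC and 25.6 and 24.5 in qHF-SC. HF-TAC stood apart, and the 2 stem cell groups overlapped. Ccne2 was 5.70-fold higher in HF-TAC than in qHF-SC (log2 2.51 ± 0.29, limma adjusted p = 0.000827) and 5.05-fold higher than in aHF-SC (2.34 ± 0.29, adjusted p = 0.00211). Its difference between aHF-SC and qHF-SC was 0.17 ± 0.29 (adjusted p = 0.824). Ccne1 had 232.6 and 277.5 in HF-TAC, 126.0 and 92.9 in aHF-SC and 55.1 and 78.3 in qHF-SC. The groups did not overlap, with aHF-SC in the middle. Ccne1 was 3.87-fold higher in HF-TAC than in qHF-SC (log2 1.95 ± 0.23, adjusted p = 0.00106) and 2.35-fold higher than in aHF-SC (1.23 ± 0.23, adjusted p = 0.0118). The second call was lost for Ccne1 when replicate 2 of aHF-SC (adjusted p = 0.0756) or of HF-TAC (0.0582) was left out. Between aHF-SC and qHF-SC the value for Ccne1 was 0.72 ± 0.23 (adjusted p = 0.135). Its other probe set gave log2 2.61 for HF-TAC against qHF-SC. Cdk2, the kinase partner of E and A cyclins, had 354.1 and 433.0 in HF-TAC, 260.6 and 299.0 in aHF-SC and 196.8 and 233.8 in qHF-SC. The groups did not overlap, but their gaps were narrower than those of the cyclins. Cdk2 was 1.83-fold higher in HF-TAC than in qHF-SC (log2 0.87 ± 0.18, adjusted p = 0.0109). That call was lost for Cdk2 when qHF-SC replicate 1 (adjusted p = 0.0745) or HF-TAC replicate 2 (0.0569) was left out, and when its 2 probe sets were averaged (0.134), the other of which lay between 4.67 and 6.19 on all arrays. That dim probe set alone turned the direction of Cdk2, to -0.20 in HF-TAC against qHF-SC and -0.22 in aHF-SC against qHF-SC. Against aHF-SC the difference of Cdk2 was 0.49 ± 0.18 (adjusted p = 0.117), and in aHF-SC against qHF-SC it was 0.38 ± 0.18 (0.301). Cdk3, a transcribed pseudogene in RefSeq, lay between 18.3 and 23.7 and passed nowhere.

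The D cyclins and their kinases moved in different directions. Of 5 members, 2 rose and 1 fell in HF-TAC against qHF-SC, and 1 rose and 1 fell against aHF-SC. In aHF-SC against qHF-SC 0 passed, where the smallest adjusted p was 0.0737 and 1 member had an unadjusted p under 0.05. The shares of all genes higher and lower were 13.4% and 12.9%, 8.97% and 8.57%, and 3.07% and 3.21% in these comparisons. Ccnd2 had 3503 and 5505 in HF-TAC, 2082 and 1290.2 in aHF-SC and 1281 and 1067 in qHF-SC. Both HF-TAC arrays were above all others, and aHF-SC lay just above qHF-SC. Ccnd2 was 3.76-fold higher in HF-TAC than in qHF-SC (log2 1.91 ± 0.29, limma adjusted p = 0.00306) and 2.68-fold higher than in aHF-SC (1.42 ± 0.29, adjusted p = 0.0163). In aHF-SC against qHF-SC its difference was 0.49 ± 0.29 (adjusted p = 0.433). The call against aHF-SC was lost for Ccnd2 when replicate 2 of aHF-SC (adjusted p = 0.0895) or of HF-TAC (0.0722) was left out. Its 7 probe sets gave 1.91 to 2.998 for HF-TAC against qHF-SC. Ccnd3 ran the other way, with 139.7 and 143.6 in HF-TAC, 280.4 and 404.4 in aHF-SC and 417.2 and 451.0 in qHF-SC. Its 3 groups did not overlap. Ccnd3 was 3.06-fold lower in HF-TAC than in qHF-SC (log2 -1.61 ± 0.20, adjusted p = 0.00117) and 2.38-fold lower than in aHF-SC (-1.25 ± 0.20, adjusted p = 0.00567). In aHF-SC against qHF-SC the value was -0.37 ± 0.20 (adjusted p = 0.377). The other 2 probe sets of Ccnd3 were dim, at 8.97 to 34.2, and when all 3 were averaged the differences were -0.68 against qHF-SC and -0.45 against aHF-SC, the second with an adjusted p of 0.0503.

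Ccnd1, the third D cyclin, had 829.8 and 1232 in HF-TAC, 1389 and 833.2 in aHF-SC and 688.2 and 764.9 in qHF-SC. HF-TAC and aHF-SC overlapped and both lay above qHF-SC. Its log2 differences were 0.48 ± 0.28 in HF-TAC against qHF-SC (limma adjusted p = 0.292), -0.09 ± 0.28 in HF-TAC against aHF-SC (0.899) and 0.57 ± 0.28 in aHF-SC against qHF-SC (0.330). Cdk4, a catalytic partner of all D cyclins, had 1980 and 2464 in HF-TAC, 1521 and 1438 in aHF-SC and 979.3 and 931.7 in qHF-SC. The groups did not overlap. Cdk4 was 2.31-fold higher in HF-TAC than in qHF-SC (log2 1.21 ± 0.17, adjusted p = 0.00177), with 1.24 and 1.53 in its other probe sets. It stood just outside the threshold in the other comparisons, at 0.58 ± 0.17 in HF-TAC against aHF-SC (adjusted p = 0.0527) and 0.63 ± 0.17 in aHF-SC against qHF-SC (0.0737). The Cdk4 difference from aHF-SC passed without HF-TAC replicate 1 (0.0416) and under 5 other settings (0.0285 to 0.0435), and that of aHF-SC from qHF-SC under 3 (0.0376 to 0.0497). Cdk6, the other partner, had 290.7 and 312.1 in HF-TAC, 224.5 and 232.4 in aHF-SC and 241.15 and 221.6 in qHF-SC. Both HF-TAC arrays were above the rest, but no difference of Cdk6 passed as fitted: 0.38 ± 0.15 against qHF-SC (adjusted p = 0.105), 0.40 ± 0.15 against aHF-SC (0.116) and -0.02 ± 0.15 in aHF-SC against qHF-SC (0.974). With 16 added, both Cdk6 differences of HF-TAC passed, at adjusted p of 0.0335 against qHF-SC and 0.0421 against aHF-SC.

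Of the 15 members that act in transcription, which include Cdk7 with its cyclin Ccnh, Cdk9 with Ccnt1 and Ccnt2, and Cdk12 and Cdk13 with Ccnk, 2 rose in HF-TAC against qHF-SC, a share near the 13.4% of all genes. Against aHF-SC 2 rose and 1 fell, with 8.97% of all genes higher and 8.57% lower. In aHF-SC against qHF-SC 0 passed, with log2 differences of -0.62 to 0.48 and 3 members at an unadjusted p under 0.05. The Mediator kinase module, in which Ccnc binds Cdk8 or its paralog Cdk19, held all 3 members called against aHF-SC. Cdk8 had 319.4 and 436.3 in HF-TAC, 205.8 and 188.8 in aHF-SC and 261.4 and 216.8 in qHF-SC. HF-TAC stood above both stem cell groups, and here aHF-SC was the lowest. Cdk8 was 1.89-fold higher in HF-TAC than in aHF-SC (log2 0.92 ± 0.20, limma adjusted p = 0.0191). Against qHF-SC its difference was 0.65 ± 0.20 with an adjusted p of 0.05004, just over the threshold, which it passed without HF-TAC replicate 1 (0.0252) and under 5 other settings (0.0383 to 0.0476), and in aHF-SC against qHF-SC it was -0.27 ± 0.20 (0.536). Without aHF-SC replicate 1, aHF-SC replicate 2 or HF-TAC replicate 2 the call on Cdk8 was lost, at adjusted p of 0.0605, 0.105 and 0.0841. Cdk19 went the opposite way, at log2 -0.67 in HF-TAC against aHF-SC (adjusted p = 0.0285) and -0.52 against qHF-SC (0.0508), where it passed under 4 other settings (0.0152 to 0.0416). The Cdk19 call was lost without any one of the aHF-SC or HF-TAC arrays, at adjusted p of 0.0683 to 0.132. Ccnc, the shared cyclin, was higher by 0.94 in HF-TAC than in qHF-SC (adjusted p = 0.00647) and by 0.70 than in aHF-SC (0.0316). The second Ccnc call was lost without any one array other than HF-TAC replicate 1, at adjusted p of 0.0579 to 0.138, and when its probe sets were averaged (0.123). Cdk12, a kinase of the RNA polymerase II tail, was higher by 0.78 in HF-TAC than in qHF-SC (adjusted p = 0.0146). The mean of its 7 probe sets turned that value for Cdk12 to -0.10, and the call was lost without qHF-SC replicate 1 (0.0924) or HF-TAC replicate 2 (0.0745).

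Of the 12 other members, 3 fell in HF-TAC against qHF-SC and 1 against aHF-SC, with 12.9% and 8.57% of all genes lower. In aHF-SC against qHF-SC 0 passed, with log2 differences of -0.92 to 0.80 and 2 members at an unadjusted p under 0.05. There 3.07% of all genes were higher and 3.21% lower. Cdk20, a relative of Cdk7 linked to primary cilia in mice, had 26.0 and 26.9 in HF-TAC, 41.9 and 64.0 in aHF-SC and 70.9 and 74.4 in qHF-SC. The groups did not overlap, and HF-TAC lay only just above the array median. Cdk20 was 2.74-fold lower in HF-TAC than in qHF-SC (log2 -1.46 ± 0.21, limma adjusted p = 0.00247) and 1.96-fold lower than in aHF-SC (-0.97 ± 0.21, adjusted p = 0.0209). In aHF-SC against qHF-SC the value was -0.49 ± 0.21 (adjusted p = 0.263). The Cdk20 call against aHF-SC was lost on leaving out aHF-SC replicate 2 (adjusted p = 0.0864), HF-TAC replicate 1 (0.0695) or HF-TAC replicate 2 (0.0681), and with 16 added (0.0534). Ccng1, a target of p53, fell by 1.12 on the log2 scale in HF-TAC against qHF-SC (adjusted p = 0.00861). Its value in aHF-SC against qHF-SC was -0.92 (0.0556), which passed under 3 other settings (0.0379 to 0.0456). That value also passed when either HF-TAC array was left out, which changes the estimated spread and not the difference of -0.92. The first Ccng1 call was lost without qHF-SC replicate 2 (adjusted p = 0.0569), when its probe sets were averaged (0.111, log2 -0.37) and without suffixed probe sets (0.0571), which are those whose probes can match several transcripts. Ccni fell by 0.81 in HF-TAC against qHF-SC (adjusted p = 0.0112), a call lost for Ccni without qHF-SC replicate 1 (0.0734) or HF-TAC replicate 2 (0.0541) and when its probe sets were averaged (0.067). The direction of Ccng1 depended on the probe set. Another probe set of Ccng1 had 95.3 and 97.4 in HF-TAC and 61.0 and 70.5 in qHF-SC, a log2 difference of 0.55. The remaining probe set of Ccng1 gave -0.54. The other 9 members ran from -0.09 to 0.78 in HF-TAC against qHF-SC. They include Cdk5, the neuronal kinase of the family, at 0.10, and Cdk14, which lay below the array median on all 6 arrays.

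**Figure D3:**
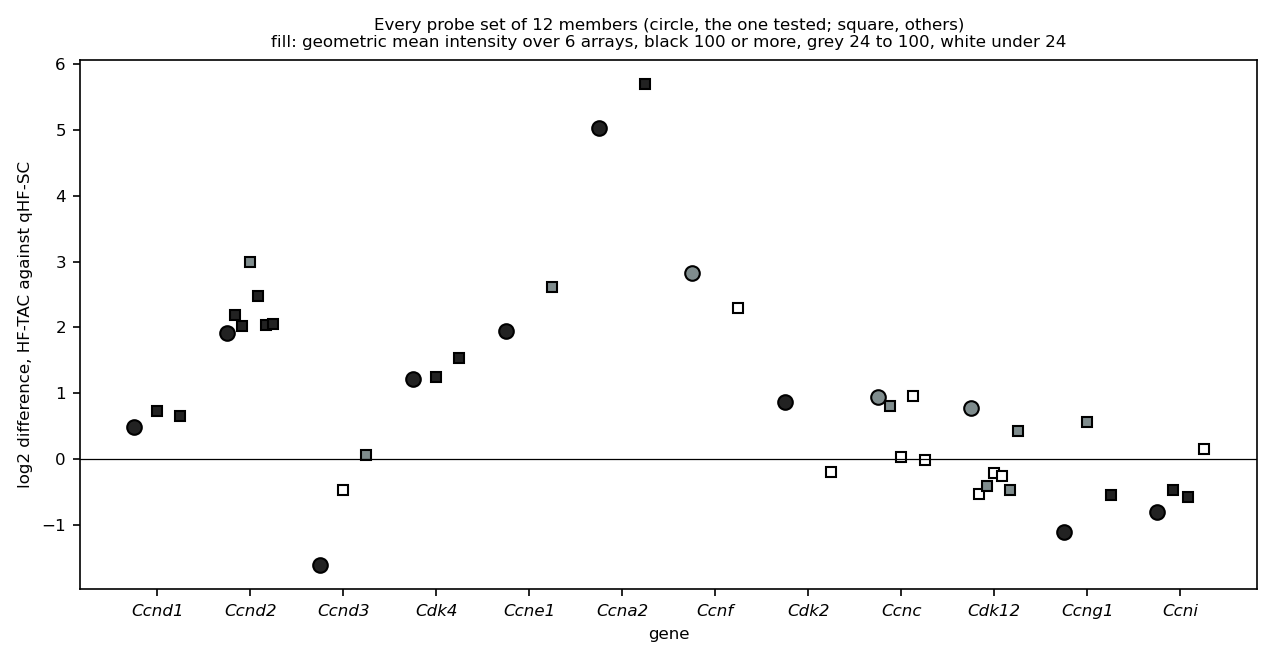
Log2 difference in HF-TAC against qHF-SC (vertical axis) for every probe set of 12 members with more than 1 (horizontal axis), with the tested one as a circle, the others as squares and a darker fill for brighter probe sets. The 7 probe sets of Ccnd2 lie between 1.91 and 2.998. Those of Cdk12 lie on both sides of 0, between -0.53 and 0.78, as do those of Ccng1, between -1.12 and 0.55.

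Proteins that act on cyclin-CDK complexes were read from a list of 28 regulators, all of them measured. In HF-TAC, 13 rose and 4 fell against qHF-SC, with 13.4% of all genes higher and 12.9% lower. Against aHF-SC 13 rose and 2 fell, with 8.97% of all genes higher and 8.57% lower. In aHF-SC against qHF-SC, 5 rose and 3 fell, with 3.07% of all genes higher and 3.21% lower. The median log2 difference of the list was 0.52, 0.63 and 0.26, against -0.01, -0.01 and 0.00 over all genes. The largest rises were those of Cdc20, which activates the ubiquitin ligase that destroys B cyclins, Cdkn3, a phosphatase of CDKs, Cks2, a small CDK-binding adaptor, and Cdc25c, the phosphatase that activates Cdk1. Cdc20 had log2 differences of 5.34 ± 0.32 in HF-TAC against qHF-SC (limma adjusted p = 8.15e-05), 2.25 in HF-TAC against aHF-SC (0.00351) and 3.09 in aHF-SC against qHF-SC (0.00426). Averaged over its probe sets, these differences of Cdc20 were 4.26 against qHF-SC in HF-TAC and 2.26 in aHF-SC. Cdkn3 had 4.55 (adjusted p = 0.000138), 2.42 (0.00313) and 2.13 (0.0156) in the same comparisons, and 3.28 and 1.23 against qHF-SC with 16 added. Cks2 had 4.38 (0.000114), 2.42 (0.00204) and 1.96 (0.014). Cdc25c had 4.14 (0.000122), or 3.27 with 16 added, 2.75 (0.00122) and 1.39 (0.0361). The fifth regulator that rose in aHF-SC was Cdkn2c, an inhibitor of Cdk4 and Cdk6, at 0.87 (0.0439). The calls on aHF-SC against qHF-SC were lost for Cdkn3, Cks2, Cdc25c and Cdkn2c without qHF-SC replicate 2, at adjusted p of 0.088, 0.104, 0.213 and 0.18, and with 16 added, at 0.0824, 0.0525, 0.0975 and 0.0725. They were also lost for Cdkn3 without qHF-SC replicate 1 (0.07), for Cdc25c without aHF-SC replicate 1 (0.14), and for Cdkn2c without qHF-SC replicate 1 (0.189) or either aHF-SC array (0.185 and 0.0591).

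The regulators that fell are named here after their values were seen. Cables1, an adaptor that binds Cdk2 and Cdk5, had 202.2 and 235.2 in HF-TAC, 430.5 and 578.0 in aHF-SC and 851.3 and 991.6 in qHF-SC. Its groups did not overlap, with differences of -2.07 ± 0.20 in HF-TAC against qHF-SC (limma adjusted p = 0.000403), -1.19 in HF-TAC against aHF-SC (0.00643) and -0.88 in aHF-SC against qHF-SC (0.0455). The last was lost for Cables1 without any one of the aHF-SC or qHF-SC arrays, at adjusted p of 0.0599 to 0.257, and with 16 added (0.0723). Cdkn1c, a broad CDK inhibitor, had 38.6 and 47.1 in HF-TAC, 46.0 and 48.0 in aHF-SC and 109.0 and 145.1 in qHF-SC. HF-TAC and aHF-SC overlapped, below qHF-SC. Its differences were -1.56 in HF-TAC against qHF-SC (adjusted p = 0.00117), -0.14 in HF-TAC against aHF-SC (0.739) and -1.42 in aHF-SC against qHF-SC (0.0111), the last lost for Cdkn1c without qHF-SC replicate 2 (0.0739) or aHF-SC replicate 1 (0.0637). Wee1, the kinase that holds Cdk1 inactive, had 330.0 and 442.8 in HF-TAC, 191.2 and 125.3 in aHF-SC and 472.2 and 685.5 in qHF-SC. Here aHF-SC was the lowest of the 3 groups. Wee1 was 1.30 higher in HF-TAC than in aHF-SC on the log2 scale (adjusted p = 0.0183) and differed by -1.88 in aHF-SC against qHF-SC (0.0139), the second lost for Wee1 without qHF-SC replicate 2 (0.0967) or aHF-SC replicate 2 (0.0576). Btrc and Fbxw7 are F-box proteins of SCF ubiquitin ligases, and Fbxw7 marks E cyclins for destruction. Btrc differed by -0.82 in HF-TAC against qHF-SC (adjusted p = 0.00809), lost without qHF-SC replicate 2 (0.0606) and when its probe sets were averaged (0.0528). Fbxw7 differed by -0.55 in HF-TAC against qHF-SC (0.0466). That call was lost for Fbxw7 without any one array, at log2 differences of -0.71 to -0.39. It was also lost when the probe sets of Fbxw7 were averaged (0.0605), with trend and robust eBayes (0.0742) and with array weights (0.0503). The replicate number as a block ended it too (0.06). Against aHF-SC, Fbxw7 differed by -0.80 in HF-TAC (0.0162), a call lost without any one HF-TAC or aHF-SC array, at -0.84 to -0.75.

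**Figure D4:**
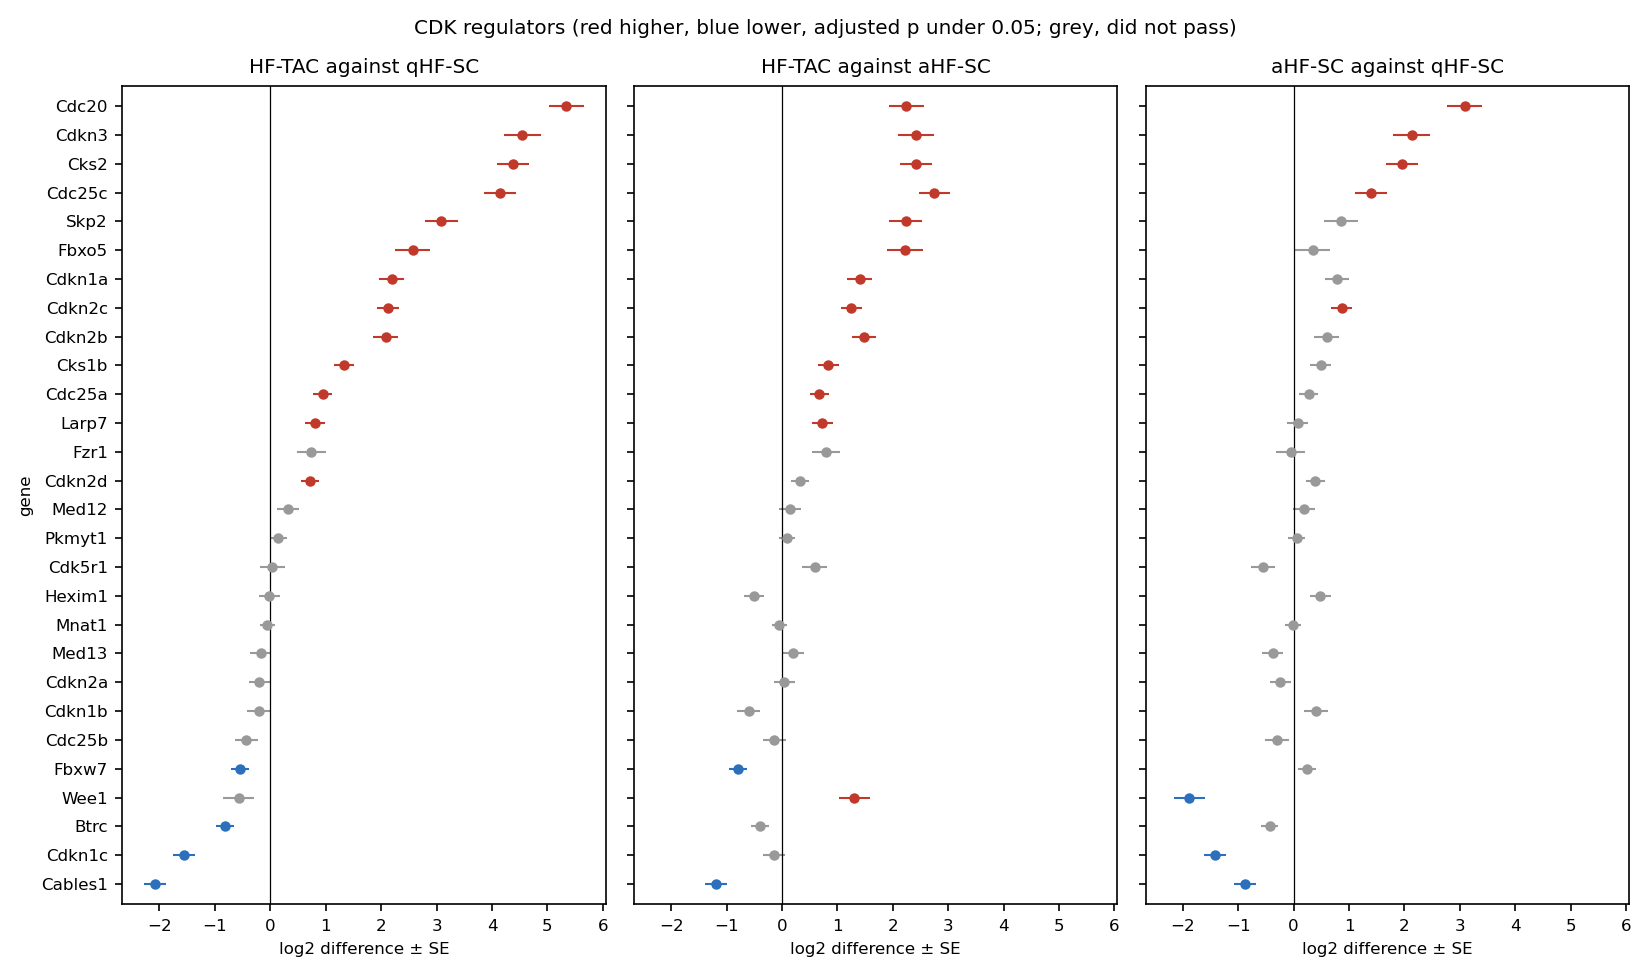
Log2 difference with its standard error (horizontal axis) of the 28 regulators of cyclin-CDK complexes in HF-TAC against qHF-SC, HF-TAC against aHF-SC and aHF-SC against qHF-SC. Red points were higher and blue points lower at an adjusted p under 0.05 in limma, and grey points did not pass. Cdc20 stands at 5.34 and Cables1 at -2.07 in the first panel.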

How the data were processed

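Per the labels, biotin-labelled cRNA from 6 RNA samples was hybridised to Affymetrix mouse arrays. The deposited values are probe set intensities on a linear scale. RMA is named, without a version or role, in the submitters' processing notes, and the sources used here do not give the software or the scale conversion. RMA compresses large differences, and no detection calls were used. Of 45101 probe sets, 34945 had 1 gene symbol, 932 several, 9160 none and 64 were controls. Symbols come from the platform annotation, and coordinates from RefSeq (GRCm38.p6), which matched all 42 members. Log2 intensities of 18193 genes on 6 arrays were fitted with limma 3.58.1 in R 4.3.3, with 1 mean per group, eBayes (3 residual and 4.25 prior degrees of freedom) and Benjamini-Hochberg adjustment within each comparison. Tests were two-sided with a threshold of 0.05, and standard errors are the moderated ones. The script was tested on simulated data. The number of arrays limits the precision.

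The gene families and lists were chosen with earlier results of these data known, although the rule for members reads only symbols. Values of every array are given for a core set of cyclins and CDKs and for members past the threshold that were among the 10 largest differences of a comparison. Up to 4 regulators with the largest changes are named, and others where 5 or fewer moved one way. The other lists gave these counts, past the threshold in HF-TAC against qHF-SC, HF-TAC against aHF-SC and aHF-SC against qHF-SC. Of 10 proliferation markers 10, 10 and 7 were higher. Of 10 bulge stem cell markers 9, 10 and 2 were lower. Of 10 matrix markers 9, 8 and 2 were higher. Of 8 dissociation genes 8, 0 and 7 were higher. Of 6 melanocyte markers 4, 1 and 0 were higher. Of 6 markers of differentiated keratinocytes 1 and 3 were higher, and 3 were lower in aHF-SC against qHF-SC. Of 7 fibroblast and papilla markers 1 was higher in each, and 1 lower in the first. Of 5 immune markers 0 passed in any comparison, with 1 at an unadjusted p under 0.05 in each, and of 4 endothelial markers 1 was lower in the first.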

Additional observations from a re-analysis of the deposited data

How the results depend on the processing

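There were 15 alternatives, 6 of them leaving out 1 array, where a group left with 1 array was assumed to vary like the others. Over 66 results on named genes they gave 972 values, of which 874 kept direction and side of the threshold, 78 ended a call, 11 gained one and 9 reversed. All 4 reversals other than those from leaving out an array concerned the choice of probe sets: averaged over its probe sets Cdk12 was -0.10 in HF-TAC against qHF-SC and Cdk6 was 0.12 in aHF-SC against qHF-SC. Without suffixed probe sets Cdk2 was -0.20 in HF-TAC against qHF-SC and -0.22 in aHF-SC against qHF-SC. Leaving out 1 array gave Ccnd1 -0.46 to 0.28 in HF-TAC against aHF-SC, Ccne2 -0.21 to 0.56 and Cdk6 -0.0781 to 0.0436 in aHF-SC against qHF-SC, none of which passed. In every alternative in which the gene could be tested, HF-TAC kept 11 of its 15 member calls against qHF-SC and 4 of its 12 against aHF-SC, and aHF-SC kept 1 of its 3, Ccnb2, against qHF-SC. With dim genes left out, Ccne2, Ccnf and Cdk20 were not tested, and without suffixed probe sets Cdk20 was not.

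The count of members lower in aHF-SC against qHF-SC, 0 in the limma fit, was 1 without suffixed probe sets (Cdk7), and 1 with dim genes left out, with trend and robust eBayes and with array weights (Ccng1), and 0 to 1 without 1 array. Members higher ranged from 4 to 10 in HF-TAC against aHF-SC and from 1 to 4 in aHF-SC against qHF-SC without 1 array, and members lower in HF-TAC against aHF-SC from 1 to 3. Regulators lower numbered 2 in HF-TAC against qHF-SC with the mean of probe sets. Without 1 array they numbered 2 to 3 there, 1 to 2 in HF-TAC against aHF-SC and 0 to 3 in aHF-SC against qHF-SC. Regulators higher in aHF-SC against qHF-SC numbered 1 with 16 added, 3 with dim genes left out and 1 to 5 without 1 array. The cause was not tested.

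Deviations of same-numbered arrays correlated at 0.0838 between HF-TAC and aHF-SC, -0.127 between HF-TAC and qHF-SC and 0.0615 between aHF-SC and qHF-SC. With a single replicate difference per group, such low correlations cannot show whether same-numbered samples were paired. With the replicate number as a block, members higher and lower numbered 11 and 4, 9 and 3, and 3 and 0 in the 3 comparisons, the same counts as without it. Among named genes the block ended the calls on Fbxw7 in HF-TAC against qHF-SC (adjusted p = 0.06) and Cdkn2c in aHF-SC against qHF-SC (0.0766).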

Other observations

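Among the 27 members with more than 1 probe set, some whose tested probe set did not pass had other, dimmer probe sets that moved further. These ran lower in HF-TAC for some and higher for others. For Cdk7, the catalytic subunit of the CDK-activating kinase, the probe set used had a log2 difference of 0.44 in HF-TAC against qHF-SC, and 2 others had -1.07 and -1.27. The second of these read 93.7 and 99.7 in HF-TAC, 136.5 and 134.9 in aHF-SC and 206.8 and 262.7 in qHF-SC. For Ccnt2, a cyclin of Cdk9, the probe set used had -0.31 and 2 others had -1.47 and -1.04. For Ccny, a membrane-bound cyclin, the probe set used had 0.05, 2 others had -1.17 and -1.21, and another had 0.62. The last read 206.9 and 200.4 in HF-TAC and 143.7 and 121.8 in qHF-SC. For Cdk16, the probe set used had 0.04 and another had 1.22, at 172.2 and 206.8 in HF-TAC and 87.3 and 74.9 in qHF-SC. These probe sets were chosen after their values were seen. In the fit without suffixed probe sets, which takes the -1.27 probe set for Cdk7, limma gave an adjusted p of 0.00145, and averaged over its probe sets Ccnt2 had -0.64 (adjusted p = 0.0207). Which probe sets read the full transcripts was not tested.

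Cdkn1a and Cdkn1c, inhibitors of the same family that were picked after their values were seen, had opposite signs in HF-TAC against qHF-SC. Cdkn1a had 1984 and 1516 in HF-TAC, 546.8 and 786.8 in aHF-SC and 392.1 and 368.4 in qHF-SC, a log2 difference of 2.19 ± 0.22 in HF-TAC against qHF-SC (limma adjusted p = 0.000535). Cdkn1c had -1.56. Cdkn1a is itself known to respond to stress, and the dissociation genes summed to 42965 and 38269 in HF-TAC, 51825 and 73809 in aHF-SC and 20616 and 14520 in qHF-SC. The part of dissociation in the level of Cdkn1a was not tested. Most of the Cdkn1 and Cdkn2 inhibitors on the list rose in HF-TAC against qHF-SC, and Cdkn1c alone fell past the threshold. Besides Cdkn1a, the log2 differences were 2.12 for Cdkn2c (limma adjusted p = 0.00034), 2.08 for Cdkn2b (0.000665) and 0.72 for Cdkn2d (0.0178). Cdkn1b and Cdkn2a did not pass, both at -0.20 (0.584 and 0.535).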
